A study of Mus musculus with 4 samples.

Results

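The 40 genes examined here act in G2 and mitosis, the last phases of the cell cycle, and were taken from a fixed list of symbols in expression tables of 32285 mouse genes. All 40 symbols were found in each of the 4 libraries. The list was written by function and no measured value chose its members, although earlier results of these data were known when it was written. The cells were donor-derived (CD45.2+) mouse bone marrow cells without lineage markers that carried Sca1 and Kit, the LSK population, which includes blood stem cells and the progenitors nearest to them. They were taken 10 weeks post-transplantation. RNA and 6 surface proteins were counted in the same cells as unique molecular identifiers (UMIs), by droplet sequencing with barcoded antibodies (CITE-seq).

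There was 1 library each of control cells, cells with Mll3 deleted, cells with Mll4 deleted, and cells with both deleted (Mll3/4). Mll3 and Mll4 are the histone methyltransferases encoded by Kmt2c and Kmt2d. All 4 groups shared the transplantation and the sort. The recipients, the Cre driver, the strain and the number of mice pooled per library are not given in the sources used here. With 1 library per group there is no spread between animals to set a difference against, so no test was run, and every interval below is a 95% interval for counting error only.

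Before a cell divides, cyclin A and cyclin B bind the kinase CDK1, which drives chromosome condensation, breakdown of the nuclear envelope and spindle assembly. The checkpoint kinases hold the cell until every kinetochore is attached, after which CDC20 and the anaphase-promoting complex mark cyclin B and securin for destruction with the help of UBE2C. Transcripts of these genes accumulate from late S phase to mitosis and are low in quiescent cells, and most adult blood stem cells rest outside the cycle while their progeny divide often.

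Many G2 and mitosis genes are read from promoters that hold a CHR element, with the letters TTTGAA or TTCGAA, near the start and CCAAT boxes upstream, the sites bound by the MuvB and NF-Y complexes. RefSeq promoter windows on GRCm38.p6, each from 250 bases before to 50 bases after a gene's start, matched 35 of the 40 genes by symbol. TTTGAA on either strand occurred in 27 of the 35 windows (77.1%) against 17.9% of all 32851 windows of the table. CCAAT on either strand also occurred in 27 (77.1%, against 37.4%), TTTGAA together with CCAAT in 24 (68.6%, against 6.95%), and TTCGAA in 3 (8.57%, against 1.56%). In 25 of the 27 genes with TTTGAA, a match began within 50 bases of the start. Positions were not counted over all windows, so this count has no background beside it. The stretches below run from 170 bases before to 30 bases after the start, 5′ to 3′ on the gene's strand, with the 3 motifs in capitals on either strand (TTCAAA is TTTGAA and ATTGG is CCAAT read from the other strand). Cdc20, Ccnb1, Ube2c, Cdk1 and Cenpa are shown because they had the 5 highest ratios of the 38 genes compared below in the library labelled Mll3 (the window of Ccnb1 holds CCAAT but neither TTTGAA nor TTCGAA), Top2a because its stretch held 7 matches, and Nusap1 as a gene with none.
Top2a, chr11:99024160-99024359, minus strand: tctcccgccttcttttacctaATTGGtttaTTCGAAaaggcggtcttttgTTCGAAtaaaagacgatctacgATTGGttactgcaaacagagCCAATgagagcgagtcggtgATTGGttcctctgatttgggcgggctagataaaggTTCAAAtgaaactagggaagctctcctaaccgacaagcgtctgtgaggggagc
Cdk1, chr10:69352883-69353082, minus strand: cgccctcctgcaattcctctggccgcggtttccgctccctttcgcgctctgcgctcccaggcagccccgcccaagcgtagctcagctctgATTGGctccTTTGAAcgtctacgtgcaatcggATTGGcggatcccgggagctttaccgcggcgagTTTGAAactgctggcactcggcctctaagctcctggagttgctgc
Cdc20, chr4:118437314-118437513, minus strand: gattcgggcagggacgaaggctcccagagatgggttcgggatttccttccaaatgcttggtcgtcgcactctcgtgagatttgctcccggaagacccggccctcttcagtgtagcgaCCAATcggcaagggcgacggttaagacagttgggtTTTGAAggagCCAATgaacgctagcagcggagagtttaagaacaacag
Ube2c, chr2:164769759-164769958, plus strand: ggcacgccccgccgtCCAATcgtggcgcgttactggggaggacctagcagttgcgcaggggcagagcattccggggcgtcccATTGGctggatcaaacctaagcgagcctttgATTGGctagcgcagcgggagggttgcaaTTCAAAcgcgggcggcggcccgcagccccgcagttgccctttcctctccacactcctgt
Cenpa, chr5:30666716-30666915, plus strand: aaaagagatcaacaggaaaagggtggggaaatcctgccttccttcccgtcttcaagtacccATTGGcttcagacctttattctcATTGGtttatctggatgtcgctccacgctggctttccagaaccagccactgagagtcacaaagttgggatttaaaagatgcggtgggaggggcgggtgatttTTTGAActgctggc
Ccnb1, chr13:100786457-100786656, minus strand: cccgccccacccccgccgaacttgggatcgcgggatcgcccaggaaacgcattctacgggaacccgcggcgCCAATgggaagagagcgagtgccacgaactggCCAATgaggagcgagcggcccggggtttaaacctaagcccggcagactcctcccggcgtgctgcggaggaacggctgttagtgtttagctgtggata
Nusap1, chr2:119618128-119618327, plus strand: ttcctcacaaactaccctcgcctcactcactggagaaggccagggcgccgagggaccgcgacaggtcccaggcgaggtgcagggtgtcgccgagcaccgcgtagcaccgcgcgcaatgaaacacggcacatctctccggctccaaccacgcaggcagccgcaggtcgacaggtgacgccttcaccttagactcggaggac
The whole windows of 5 genes (Nuf2, Knstrn, Nusap1, Tacc3 and Birc5) held none of the 3 motifs, as did 50.9% of all windows. The log2 ratios to the control of these genes, given below, went both ways. In the library labelled Mll4, Tacc3 (0.82) and Nusap1 (0.76) had the highest ratios, while Birc5 (-0.36), Knstrn (-0.14) and Nuf2 (-0.13) lay below the control. In the library labelled Mll3/4, Knstrn (-0.44), Nuf2 (-0.22) and Birc5 (-0.04) lay below it, and Nusap1 (0.49) and Tacc3 (0.34) above. A link between motifs and ratios was not tested. A match is a run of letters and not a measured site, and a missing match says only that the letters are not in this window.

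Filtering barcodes on gene number (1000 or more) and mitochondrial UMIs (10% or less) kept 7274 cells of the control, 6101 of the Mll3-labelled, 4793 of the Mll4-labelled and 4748 of the Mll3/4-labelled library. They held 50792614 to 120700343 gene UMIs per library, with medians of 14454, 15381, 21400 and 8920 UMIs per cell in the same order. Any pair of libraries shared 7 to 14 kept barcodes. Kmt2c was counted at 68.9 CPM (UMIs per 1000000 gene UMIs) in the control and at 35.3, 61.3 and 42.3 CPM in the Mll3-, Mll4- and Mll3/4-labelled libraries. Kmt2d was at 24.6, 21.6, 22.6 and 25.4 CPM, so it did not separate the Mll4 labels, and tags from the 3′ end can lie outside a deleted part. Libraries are therefore called by their labels. Of the genes for the sorted surface proteins, Kit was at 215, 216, 362 and 246 CPM and Ly6a, which encodes Sca-1, at 93.5, 133, 119 and 255 CPM, so both were detected in every library. The libraries also differed in cell content: 99.5% of the cells of the Mll3/4-labelled library held at least 10 UMIs per 10000 from a list of 11 B progenitor markers (Vpreb1 3140 CPM against 7.74 in the control), against 0.371% of control, 3.34% of Mll3-labelled and 0.647% of Mll4-labelled cells. Those 11 markers summed to 61.9, 351, 68.5 and 13159 CPM in the order control, Mll3, Mll4 and Mll3/4, and none was at 0 in any library. The 8 stem cell markers of another list summed to 669, 744, 385 and 125 CPM. In the Mll3/4-labelled library all of them but Mllt3 (63.9 against 53.6 CPM) lay below the control, with Procr at 0.138 against 32.3 CPM. In the Mll4-labelled library all but Mecom (107 against 87.5 CPM) did. In the Mll4-labelled library, 39.5% of cells reached the same level from 15 markers of cells outside the LSK population (such as Tpsb2, C1qa and Igkc) without reaching it for the B progenitor list, against 0.0632% to 0.770% elsewhere. Those 15 markers summed to 2441, 4256, 10514 and 672 CPM, and 2, 3, 0 and 6 of them were at 0. Most of each sum was Igkc, at 2078, 3823, 8016 and 562 CPM. In the Mll4-labelled library Cd3d (0.307 against 0.679 CPM) and Cd3e (0.0166 against 0.369 CPM) lay below the control, and the other markers of this list above it.

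Summed over the 40 genes, the control held 3463 CPM (interval 3453 to 3474). The Mll3-labelled library held 4015 CPM (4003 to 4027), the Mll4-labelled library 3455 CPM (3445 to 3466) and the Mll3/4-labelled library 4099 CPM (4082 to 4117). The log2 ratios of these sums to the control were 0.21, -0.0035 and 0.24, so the sum was slightly higher in the libraries labelled Mll3 and Mll3/4 and close to the control in the one labelled Mll4, where the sign changes with TMM scaling (0.034). Over the 38 genes whose mean over the libraries reached 20 CPM (Fam83d and Iqgap3 were under it), the median log2 ratio was 0.26, -0.08 and 0.26, beside 0.10, -0.13 and -0.11 over all 6125 genes past that minimum. All 3 comparisons share the control library. TMM scaling took the ratios of sums to 0.12 and 0.32 in the libraries labelled Mll3 and Mll3/4, and median-of-ratios scaling raised every log2 ratio of the latter by 0.11.

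None of the 38 genes was past 1.5-fold in the Mll3-labelled library in either direction (Fam83d, under the minimum, was higher at 0.59), where 2.56% of all genes tested were higher and 3.54% lower by that much. In the Mll4-labelled library 3 of 38 were higher (Tacc3, Nusap1 and Ttk; 7.89%, beside 10.9% of all genes) and 0 lower (beside 14.3%). Ttk, with a mean of 20.9 CPM, passed the minimum only through that library, where it is high, so its place in the count carries no weight. In the Mll3/4-labelled library 6 of 38 were higher (Bub1b, Cenpf, Anln, Ube2c, Plk1 and Ccnb1; 15.8%, beside 11.3%) and 0 lower (beside 20.8%). By direction alone, 35, 16 and 30 of 38 genes lay above the control in the Mll3-, Mll4- and Mll3/4-labelled libraries. Of all 6125 genes past the minimum, 4226, 2338 and 2523 did so. The counts over the 38 genes were 29, 18 and 31 under TMM scaling, and 29, 14 and 26 with totals that leave out mitochondrial and ribosomal protein genes. With every cell weighted alike, 34, 8 and 19 of the 34 genes then past the minimum lay above the control. In all 3 libraries 14 genes lay above the control, and 2, Cdca8 and Ect2, lay at or below it.

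**Figure D1:**
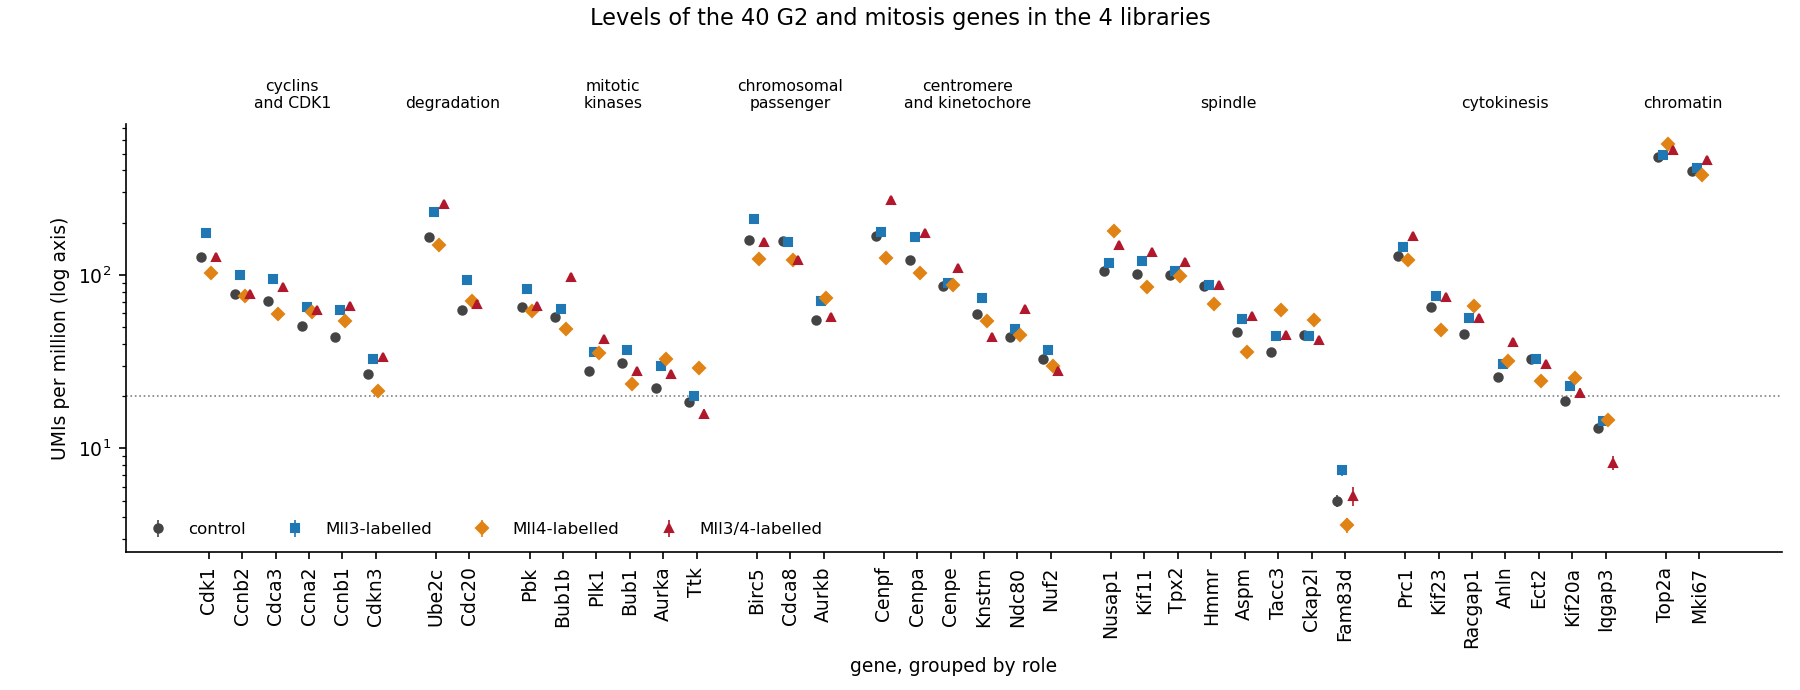
CPM (log axis) of each of the 40 genes in the 4 libraries, grouped by role; bars are 95% Poisson intervals and the dotted line is the minimum of 20 CPM. Within a gene, the 4 points mostly lie close together, and only Fam83d and Iqgap3 average below the line.

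All 6 genes of the cyclin and CDK1 group lay above the control in the Mll3-labelled library. Cdk1, the kinase itself, was counted at 126 CPM in the control and at 175, 103 and 127 CPM in the Mll3-, Mll4- and Mll3/4-labelled libraries. Ccnb1, the cyclin B of mitotic entry, was at 43.9, 62.7, 54.0 and 66.1 CPM. All 3 labelled libraries were above the control for Ccnb1, while Cdk1 was higher in the Mll3-labelled and lower in the Mll4-labelled one and had a ratio of 0.0049 (-0.04 to 0.05) in the Mll3/4-labelled one. Without the cells holding outside markers, the ratio of Cdk1 in the Mll4-labelled library went from -0.30 to -0.08. Ccna2, which acts from S phase to early mitosis, was also above the control in all 3 (log2 ratios 0.37, 0.28 and 0.31). Ccnb2, another B-type cyclin, was higher in the Mll3-labelled library only, at 101 CPM against 77.4 in the control, 75.5 and 77.9. Without the cells holding outside markers, Ccnb2 was also higher in the Mll4-labelled library, at 88.8 against 77.9 CPM (0.19). Cdkn3, a phosphatase that acts on CDK1, was at 26.8, 32.8, 21.4 and 33.5 CPM, and Cdca3, which triggers loss of the WEE1 kinase, at 70.3, 94.2, 59.9 and 84.9 CPM. Summed over these 6 genes, the log2 ratios were 0.42, -0.08 and 0.19.

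The pair that drives protein destruction at anaphase had the highest summed ratios of the 8 role groups in the libraries labelled Mll3 and Mll3/4, 0.51 in each. Cdc20, which activates the anaphase-promoting complex, was at 63.1, 93.3, 70.9 and 68.3 CPM in the order control, Mll3, Mll4 and Mll3/4. Its ratio of 0.56 (0.52 to 0.61) was the highest among the 38 genes in the Mll3-labelled library. Ube2c, the ubiquitin carrier of that complex, was at 165, 230, 149 and 256 CPM. It was thus above the control in 2 libraries (log2 0.48 and 0.63, of which the second is past 1.5-fold) and somewhat below it in the Mll4-labelled one (-0.14).

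The mitotic kinases split by library. Aurka, which matures the spindle poles, was at 22.2, 29.7, 32.97 and 27.0 CPM, above the control in all 3. Plk1, which acts from mitotic entry to cytokinesis, was at 27.9, 36.1, 35.4 and 42.8 CPM, with its highest ratio, 0.62 (0.54 to 0.69), in the Mll3/4-labelled library. Ttk, the checkpoint kinase MPS1, was at 18.5, 20.1, 29.3 and 15.8 CPM. Its ratio was 0.66 (0.58 to 0.74) in the Mll4-labelled library and -0.23 (-0.35 to -0.11) in the Mll3/4-labelled one, intervals that do not overlap. Bub1b, the checkpoint protein BUBR1, went the other way, at 57.4, 63.9, 48.5 and 97.1 CPM. Its relative Bub1, a checkpoint kinase at the kinetochore, was at 31.1, 37.1, 23.6 and 28.0 CPM and so lay below the control in both libraries with an Mll4 label. Pbk, a mitotic kinase, was at 65.0, 82.8, 61.6 and 65.9 CPM.

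The chromosomal passenger complex corrects wrong attachments and then moves to the midzone. Its kinase Aurkb was at 54.7, 71.0, 74.0 and 57.1 CPM. Birc5, the complex's survivin subunit, was at 159, 210, 124 and 155 CPM, and Cdca8, its borealin subunit, at 157, 156, 122 and 122 CPM. The 3 subunits therefore did not move together: in the Mll4-labelled library Aurkb was at 0.44 while Birc5 and Cdca8 were each at -0.36. In the Mll3/4-labelled library this was the only role group whose sum lay below the control, at -0.15.

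Among the centromere and kinetochore genes, Cenpa, the centromeric histone variant, was at 123, 165, 102 and 174 CPM. Cenpf, a large kinetochore protein that accumulates in G2, was at 168, 176, 126 and 271 CPM. Its ratios in the Mll4- and Mll3/4-labelled libraries were -0.41 and 0.69, the widest gap between these 2 libraries among the kinetochore genes. The motor Cenpe was at 86.2, 89.4, 87.7 and 109 CPM. Ndc80 and Nuf2 encode partners in the complex that binds microtubules, yet in the Mll3/4-labelled library Ndc80 was above the control (63.7 against 44.0 CPM) and Nuf2 below it (28.0 against 32.8 CPM). Knstrn, which helps sister chromatids separate, was at 59.8, 73.4, 54.4 and 44.1 CPM, and its ratio of -0.44 (-0.51 to -0.37) in the Mll3/4-labelled library was the lowest of the 38 there.

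The spindle genes held the highest ratios of the Mll4-labelled library. Tacc3, which stabilises spindle microtubules, was at 35.8, 44.5, 63.2 and 45.3 CPM, and Nusap1, which binds spindle microtubules near chromatin, at 106, 117, 179 and 148 CPM. Both were above the control in all 3 libraries and highest in the Mll4-labelled one (0.82 and 0.76). The motor Kif11, which pushes the poles apart, was at 101, 121, 85.0 and 136 CPM, and the pole protein Aspm at 47.1, 55.4, 35.9 and 58.0 CPM, both lowest in the Mll4-labelled library. Tpx2, which activates Aurora A, stayed between 98.1 and 119 CPM in all 4. Hmmr, a spindle pole protein, was at 86.1, 87.1, 68.3 and 87.8 CPM, low only in the Mll4-labelled library, and Ckap2l at 45.1, 44.3, 54.8 and 42.2 CPM, high only there. Fam83d, under the minimum, was at 4.98, 7.48, 3.60 and 5.30 CPM.

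The cytokinesis genes were spread in the same manner. Anln, which links actin and myosin in the contractile ring, was at 25.7, 30.8, 32.0 and 40.9 CPM, and Racgap1, a part of the centralspindlin complex, at 45.7, 56.2, 66.2 and 56.1 CPM. Kif23, the motor of that same complex, was at 65.7, 75.6, 48.1 and 74.3 CPM. In the Mll4-labelled library the partners Racgap1 (0.54) and Kif23 (-0.45, the lowest of the 38 there) thus lay on opposite sides of the control. Ect2, which activates RhoA at the cleavage site, was at 32.6, 32.6, 24.5 and 30.7 CPM. Prc1, which bundles midzone microtubules, was at 129, 145, 121 and 167 CPM, and the midzone motor Kif20a at 18.9, 22.9, 25.5 and 21.0 CPM. Iqgap3, under the minimum, was at 13.0, 14.4, 14.6 and 8.25 CPM, a log2 ratio of -0.66 (-0.82 to -0.50) in the Mll3/4-labelled library. Among the chromatin genes, Top2a, the topoisomerase that untangles sister chromatids, was at 477, 493, 567 and 523 CPM, and Mki67, the proliferation antigen that coats mitotic chromosomes, at 400, 414, 376 and 462 CPM. Each had a log2 ratio of 0.05 in the Mll3-labelled library, and both turn negative there under TMM scaling (-0.05).

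**Figure D2:**
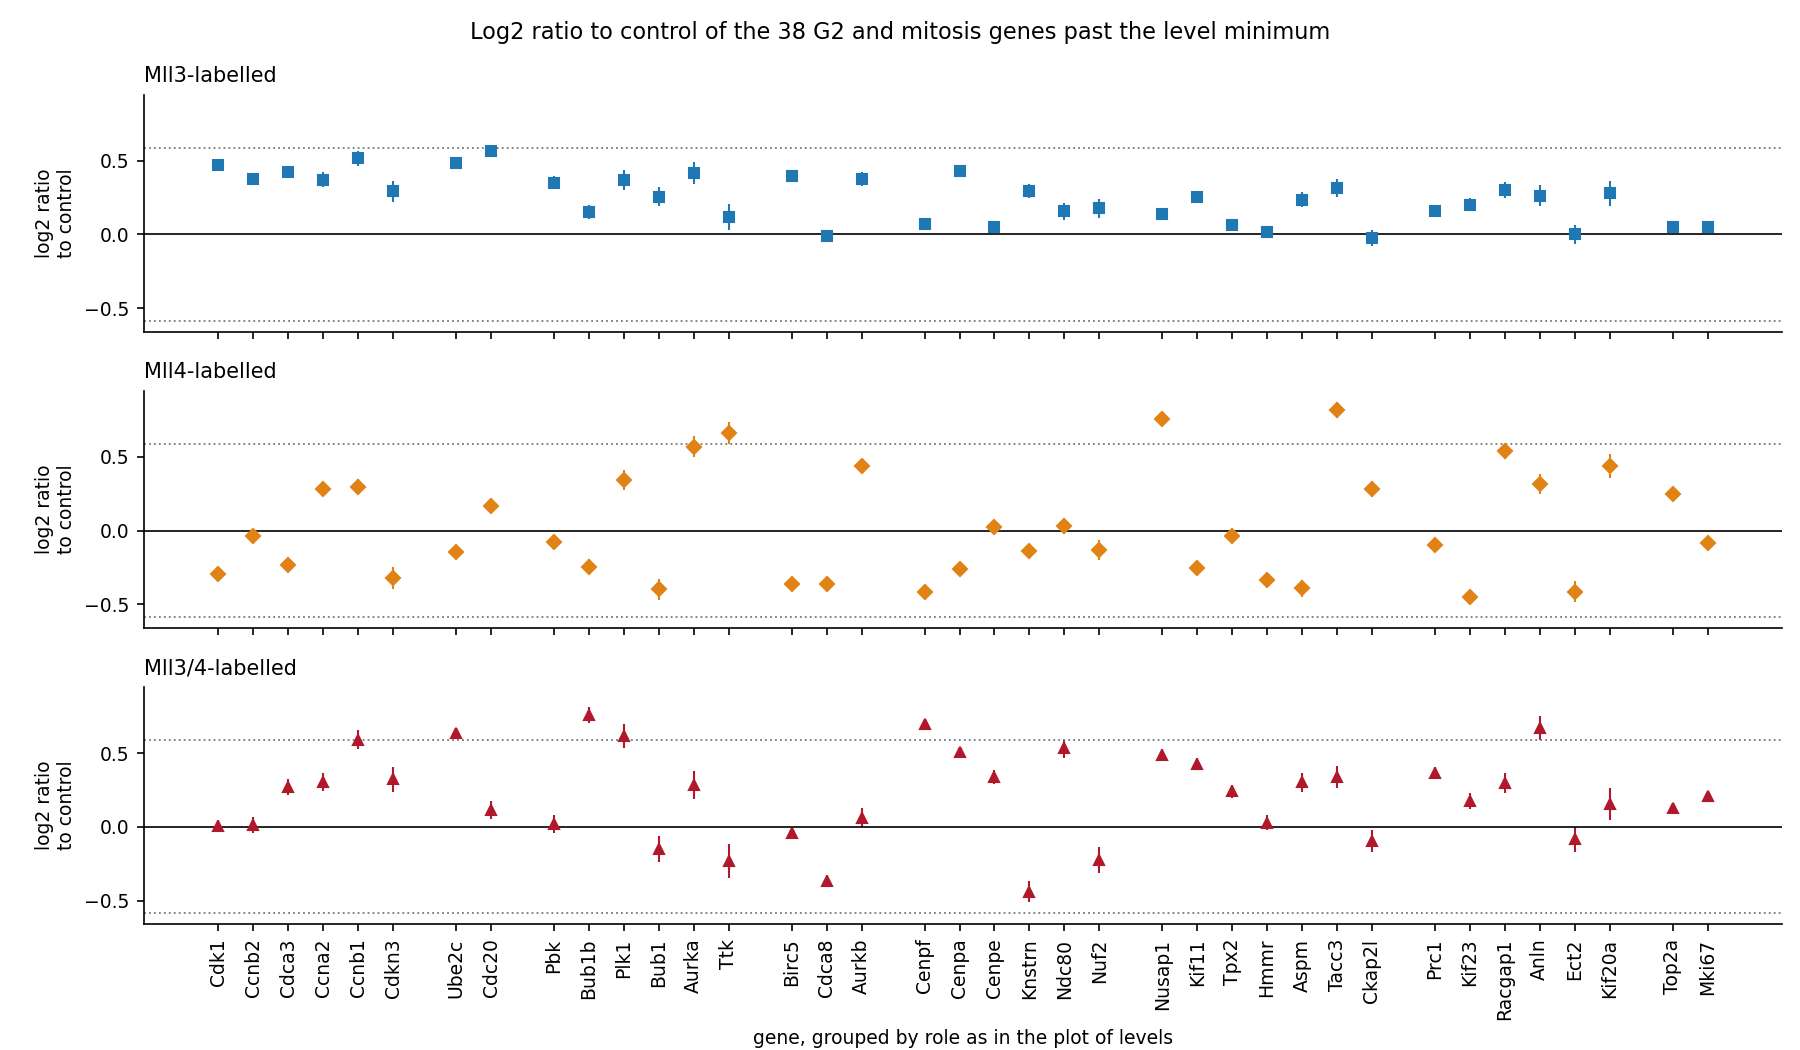
Log2 ratio to control of the 38 genes past 20 CPM in the 3 labelled libraries, with 95% counting intervals; dotted lines mark 1.5-fold. Points of the Mll3-labelled library lie between -0.02 and 0.56, while those of the Mll4-labelled library spread from -0.45 to 0.82 and those of the Mll3/4-labelled library from -0.44 to 0.76.

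The share of each role group among all G2 and mitosis UMIs does not depend on how a library is scaled. Cyclins and CDK1 made up 11.4% of these UMIs in the control and 13.2%, 10.9% and 11.0% in the Mll3-, Mll4- and Mll3/4-labelled libraries. The pair Cdc20 and Ube2c made up 6.57%, 8.06%, 6.37% and 7.90%. Centromere and kinetochore genes were at 14.8%, 14.7%, 12.9% and 16.8%, and the spindle group at 15.2%, 14.5%, 17.0% and 15.7%. The chromatin pair Top2a and Mki67 took the largest part, 25.3%, 22.6%, 27.3% and 24.0%. By group sums, the mixture thus tilted towards cyclins and Cdc20/Ube2c in the Mll3-labelled library. It tilted towards spindle and chromatin genes in the Mll4-labelled one, and towards kinetochore genes and Cdc20/Ube2c in the Mll3/4-labelled one. Single genes of these groups did not all follow. In the Mll4-labelled library Nusap1, Tacc3, Ckap2l and Top2a gained share, while Tpx2, Hmmr, Aspm, Fam83d, Kif11 and Mki67 (11.5% to 10.9%) lost it. In the Mll3/4-labelled library Cenpa, Cenpe, Cenpf, Ndc80 and Ube2c (4.8% to 6.2%) gained share, and Nuf2, Knstrn and Cdc20 (1.8% to 1.7%) lost it.

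Transcripts of G2 and mitosis genes are known to appear at different times after S phase. For each gene, UMIs of 20 S phase genes (such as Mcm2 and Pcna) per 10000 UMIs were averaged over the cells that held the gene, weighted by its UMIs. Pbk had the highest overlap in all 4 libraries (28.3, 32.9, 26.1 and 27.6 per 10000), followed in the control by Ndc80, Top2a and Aurkb. Cenpa (13.5, 19.2, 13.7 and 14.2), Ube2c, Cdkn3, Ccnb2 and Ccnb1 had the lowest overlap among genes past the minimum in the control. All cells of the libraries held 21.6, 24.4, 19.0 and 17.6 S phase UMIs per 10000. The order was alike across libraries at its ends, while Nusap1 stood at rank 22 of 40 in the control and rank 8 in the Mll3/4-labelled library.

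This overlap, measured in the control, lined up with the ratios only in part. The 10 genes with the lowest overlap (13.5 to 16.9 per 10000) had median log2 ratios of 0.40, -0.20 and 0.31 in the Mll3-, Mll4- and Mll3/4-labelled libraries. The 10 with the highest overlap (22.9 to 28.3) had medians of 0.28, -0.02 and 0.01. In the Mll3/4-labelled library all 10 genes of low overlap lay above the control, from 0.0096 (Ccnb2) to 0.69 (Cenpf), against 6 of 10 of high overlap. Of the low-overlap genes, Ccnb2 (down to -0.05) and Hmmr (down to -0.03) change sign under other scalings, and Ccnb2 (-0.22), Hmmr (-0.15) and Cdc20 (-0.08) were below the control with every cell weighted alike. Cdk1 and Pbk were exceptions in the Mll3-labelled library, with high overlap and ratios of 0.47 and 0.35. The S phase list itself had a median log2 ratio of 0.18, -0.26 and -0.51. Over the whole Mll3/4-labelled library the medians of S phase and G2 and mitosis genes therefore lay on opposite sides of the control. Of the S phase genes, 17 of 20 were below it, 8 of them past 1.5-fold. Of all 6125 genes past the minimum, 3602 were below the control in that library, and 20.8% were lower past 1.5-fold. Rrm2, a subunit of ribonucleotide reductase, at 1.23 was the only S phase gene past 1.5-fold above the control, beside 11.3% of all genes. Mcm3 and Mcm7, subunits of the replicative helicase, were at -0.75 and -0.50 in that library, and Tyms, which makes thymidylate, at -0.10. With every cell weighted alike, its G2 and mitosis median went from 0.26 to 0.05. Within its surface protein groups described below, G2 and mitosis and S phase sums were at 0.06 and -0.37 in CD150-CD48+ cells. They were at 1.10 and 0.23 in CD150-CD48- cells and at -0.51 and -0.58 in CD150+CD48+ cells, the same side in each. In CD150+CD48- cells they were at 0.68 and 0.0052, so the contrast was not seen in every group.

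**Figure D3:**
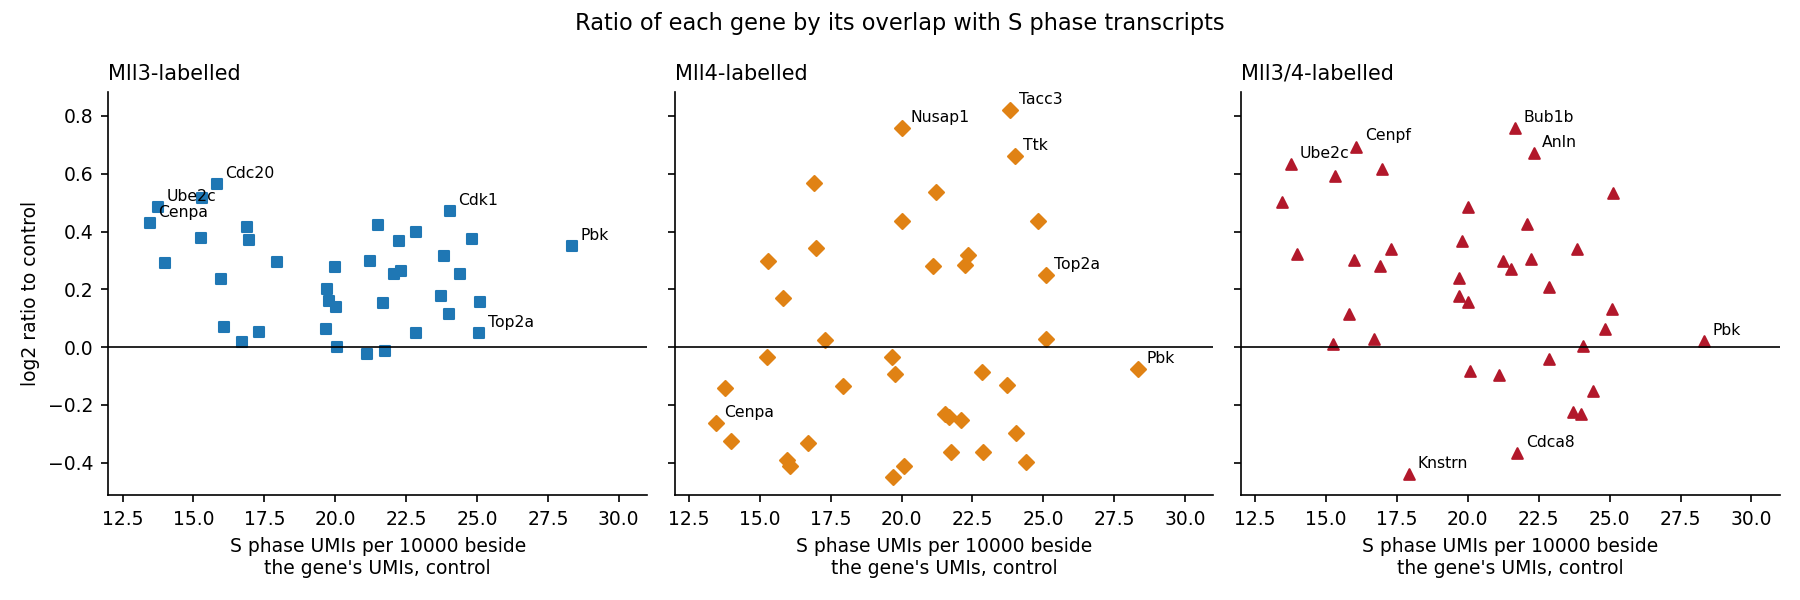
Log2 ratio to control of the 38 genes against their overlap with S phase transcripts in control cells (S phase UMIs per 10000, weighted by the gene's UMIs), by library. Of the low-overlap genes, Ube2c lies high in the libraries labelled Mll3 and Mll3/4, while Hmmr lies near 0 in both. Points of the Mll4-labelled library are spread on both sides of 0, except that the genes of lowest overlap (Cenpa, Ube2c, Cdkn3 and Ccnb2) lie below it.

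To see how the UMIs were spread over cells, each cell was thinned to 3000 gene UMIs, which left out 14, 17, 134 and 33 shallower cells. Cells with at least 10 of 3000 UMIs from the 40 genes made up 24.6% (23.6 to 25.6) of the control, 27.4% (26.3 to 28.6) of the Mll3-labelled, 22.7% (21.5 to 23.9) of the Mll4-labelled and 16.8% (15.7 to 17.9) of the Mll3/4-labelled library. This is a range on a scale and not a cell type, and 367, 298, 265 and 67 cells lay between 8 and 11 UMIs. At this mark the share was the lowest in the Mll3/4-labelled library while its summed level was the highest. At 20 or more UMIs the shares were 15.3%, 18.3%, 11.7% and 14.0%, lowest in the Mll4-labelled library, so no order of the libraries in dividing cells is read from them. The cells above the mark were richer there and held 41.7 of 3000 UMIs on average, against 25.8, 28.2 and 22.0 in the control, Mll3- and Mll4-labelled libraries. Of them, 49.1% held at least 40, against 14.6%, 22.1% and 6.35%. Over all thinned cells the means were 7.45, 8.80, 6.24 and 7.92.

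Without thinning, cells above the mark held medians of 187, 213, 307 and 225 UMIs of the 40 genes, and their median depth was 22942, 22971, 44668 and 16907 UMIs, against 11831, 12370, 13816 and 7715 in cells with 0 to 2. Cells rich in these transcripts were thus deeper in every library, and summed values weigh them accordingly. Between 80.1% and 88.3% of thinned G2 and mitosis UMIs came from them.

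**Figure D4:**
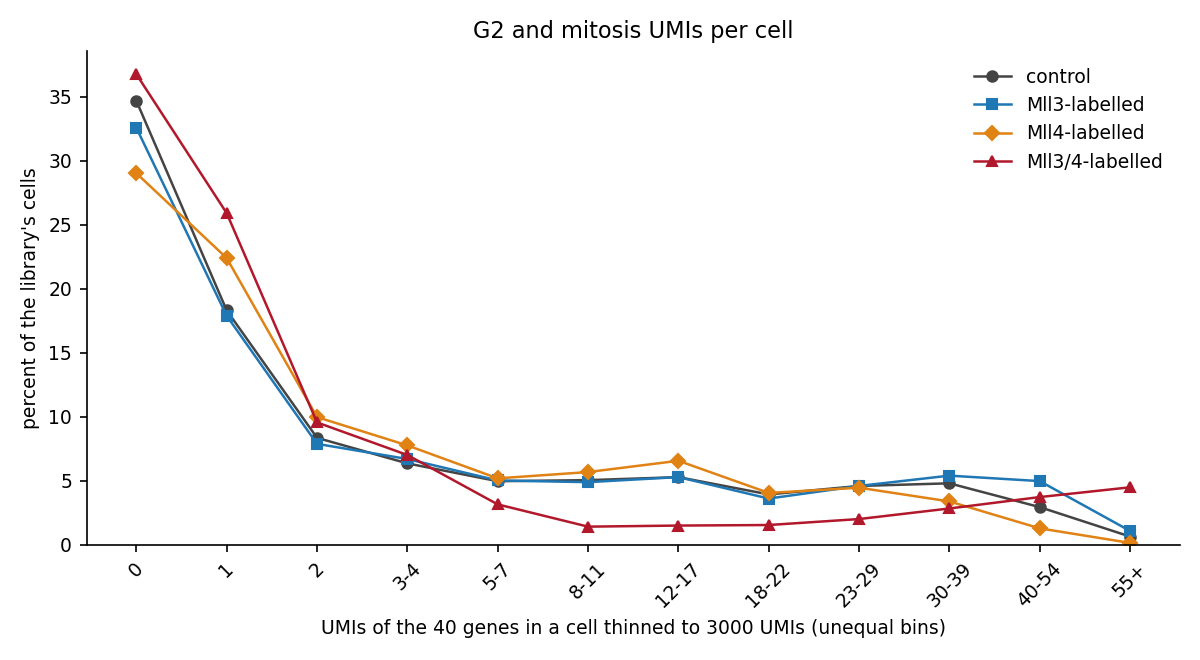
Percent of each library's cells by the number of UMIs from the 40 genes among 3000, in unequal bins. The Mll3/4-labelled library is lowest from 5 to 39 UMIs and highest at 55 or more.

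Single genes differed in how strictly they kept to those cells. In control cells above the mark Ube2c was at 448 CPM, against 2.67 CPM in cells with 0 to 2 UMIs, and in the Mll3/4-labelled library at 882 against 4.50 CPM. Cenpf likewise went from 434 CPM in rich control cells to 917 CPM in rich Mll3/4-labelled cells, with 7.81 and 6.33 CPM in the cells with few. Bub1b differed from these: it was at 139 and 245 CPM in rich cells of these libraries, and at 4.78 and 34.6 CPM in cells with few G2 and mitosis UMIs. Mki67 showed a smaller shift of that kind, 17.6 against 41.3 CPM in cells with few, whereas Top2a did not, at 61.3 against 50.3 CPM. The choice of cells used these same UMIs, so the values describe the cells and support no difference.

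The surface proteins were not used to choose these cells. As centred log ratios (natural log, over the 6 antibodies), CD48, a protein that long-term stem cells lack, had a median of 2.73 in control cells above the mark and 1.59 in control cells with 0 to 2 UMIs. In the Mll3-labelled library the medians were 1.74 and 0.38, in the Mll4-labelled library 3.28 and 3.01, and in the Mll3/4-labelled library 0.71 and 0.63. CD201, the stem cell protein EPCR, was lower in rich cells, at -1.62 against -0.95 in the control and -0.74 against -0.61 in the Mll3/4-labelled library. CD150, which marks long-lived stem cells, was at -0.94 against 0.15 in the Mll3-labelled library and at -0.51 against -0.42 in the Mll3/4-labelled one. CD34, a progenitor marker, differed most in the Mll4-labelled library, at 0.53 against -0.42. Rich and poor cells thus differed in CD48 by 1.14 and 1.36 in the control and Mll3-labelled libraries, and by 0.09 in the Mll3/4-labelled one, beside SDs of 1.02 to 1.48 over cells.

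Cells were then split by CD150 and CD48, the pair used to separate stem cells (CD150+CD48-) from progenitors. In the control the 40 genes summed to 2416 CPM in CD150+CD48- cells, 2047 in CD150-CD48-, 3950 in CD150-CD48+ and 4791 in CD150+CD48+ cells. The CD48+ groups were thus 1.64- and 1.98-fold above the CD150+CD48- group, with all 38 genes higher in each. The median log2 ratio over all genes was 0.0017 and 0.047 in these groups. In the Mll3-labelled library the same 2 folds were 1.69 and 1.70, in the Mll4-labelled library 1.19 and 1.55, and in the Mll3/4-labelled library 1.06 and 0.87. The step between stem-type and progenitor-type surface groups was therefore not seen in the Mll3/4-labelled library, where all 4 groups lay between 3365 and 4378 CPM.

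Within CD150+CD48- cells the Mll3-, Mll4- and Mll3/4-labelled libraries held 3164, 2941 and 3870 CPM (log2 ratios 0.39, 0.28 and 0.68), all above the control. Of the 38 genes 38, 28 and 36 were above it, with medians of 0.44, 0.20 and 0.68, beside 0.09, -0.07 and -0.09 over all genes. Thinned cells above the mark made up 13.5% (11.99 to 15.16) of this group in the control. They made up 19.7%, 22.2% and 14.1% (12.54 to 15.71) in the Mll3-, Mll4- and Mll3/4-labelled libraries. The Mll3/4-labelled library thus had the highest ratio of sums here with a share of such cells close to the control. Within CD150-CD48- cells the ratios were 0.73, 0.43 and 1.10, with 38, 31 and 37 genes above the control. The medians over the 38 genes were 0.73, 0.40 and 1.06, beside 0.10, -0.11 and -0.11 over all genes. In this group the share above the mark was 11.7% in the control and 21.1%, 16.1% and 18.6% in the same order. Within CD150-CD48+ cells the ratios of sums were 0.44, -0.17 and 0.06, and within CD150+CD48+ cells 0.17, -0.07 and -0.51. The Mll3/4-labelled library thus stood highest of the 4 in both CD48- groups and lowest in the CD150+CD48+ group. In that group 37 of 38 genes were below the control (median -0.49, beside -0.13 over all genes). Without centring, the Mll3/4-labelled library held 4042 CPM in 91 CD150+CD48+ cells, a ratio of -0.25, and the Mll4-labelled one was the lowest there at 3842 CPM. With centring, the CD150+CD48+ group held 174 cells in the Mll3/4-labelled library, 347 in the control, 197 in the Mll3-labelled and 146 in the Mll4-labelled library. With thresholds set per library or without centring, the Mll3-labelled value in CD150+CD48+ cells went from 0.17 to -0.04 and -0.00088, and without centring the CD150+CD48- group of the Mll3/4-labelled library held 210 cells in place of 1917, at a ratio of 1.08. With nearly all Mll3/4-labelled cells holding B progenitor transcripts, an antibody group of that library is not the same kind of cell as in the control, and the part of this in the ratios was not tested.

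**Figure D5:**
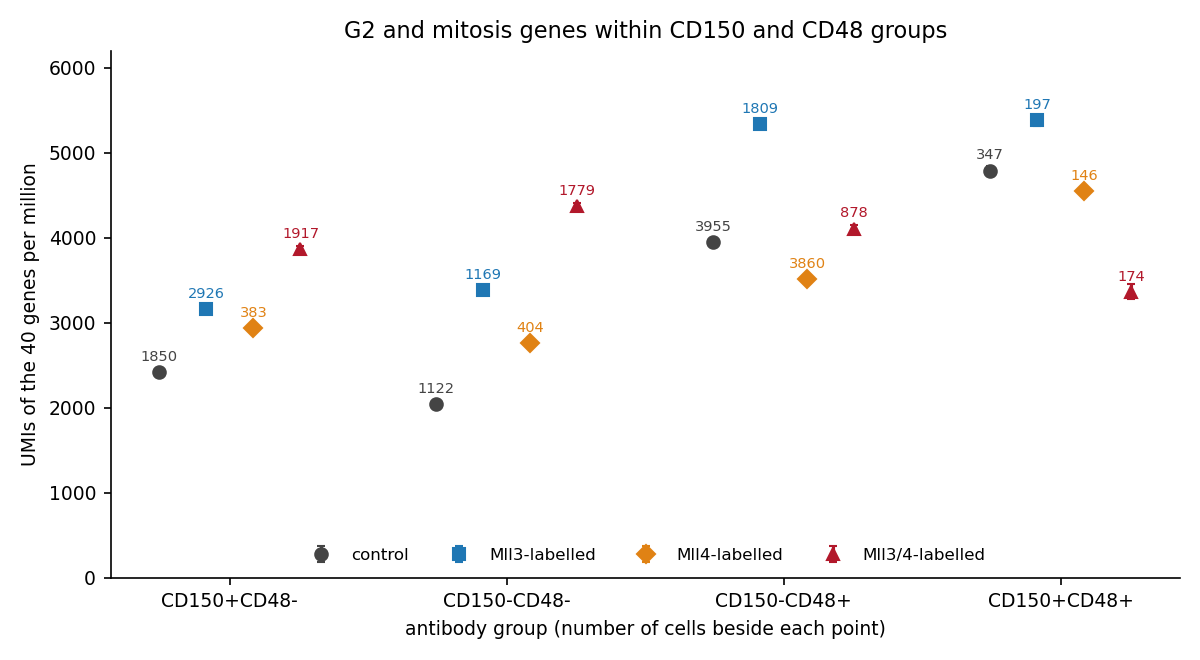
CPM of the 40 genes in 4 groups set by CD150 and CD48 antibody counts, by library, with 95% Poisson intervals and cell numbers beside the points. In the control the CD48+ groups lie above the CD48- groups, and in the Mll3/4-labelled library all groups lie between 3365 and 4378.

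Cells with B progenitor transcripts were rich in these genes in the control and Mll3-labelled libraries. They were cut at 10 UMIs per 10000 from the 11 markers, with 34, 69, 87 and 3 cells between 5 and 20. The 27 such cells of the control held 6181 CPM of the 40 genes (5975 to 6392) and the 204 of the Mll3-labelled library 9472 CPM (9387 to 9557), against 4509 in 31 cells of the Mll4-labelled library and 4109 in 4722 cells of the Mll3/4-labelled one. At the same depth 51.9%, 77.5%, 29.0% and 16.7% of them held at least 10 of 3000, against 24.7%, 25.8%, 34.9% and 34.8% of cells with neither these markers nor those from outside the LSK population. Cells with neither numbered 7191, 5854, 2867 and only 23, so the last share has a wide interval (16.4 to 57.3). The 31 cells of the Mll4-labelled library also held a median of 99.9 UMIs per 10000 from the list of outside markers. Stem cell markers of cells with B progenitor transcripts were low in each library, with medians of 0.305, 0.308, 0.365 and 0.994 UMIs per 10000, against 6.47, 7.46, 3.44 and 4.61 in cells with neither set of markers. Left out of the control and the Mll3-labelled library, these cells took the sums to 3451 and 3742 CPM, and the ratio from 0.21 to 0.12.

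The Mll4-labelled value changed with the cells that were counted. The 1895 cells with markers from outside the LSK population held 817 CPM of the 40 genes and a median of 7300 UMIs, and 2.72% of them held at least 10 of 3000. The cut was not sharp, since 736 cells of this library held between 5 and 20 outside-marker UMIs per 10000. The 2867 cells with neither set of markers held 4011 CPM and a median of 32194 UMIs, and 34.9% of them were above the mark, against 3467 CPM, 14421 UMIs and 24.7% in the control. Without the former cells in every library, the ratio of sums went from -0.0035 to 0.21, the genes above the control from 16 to 24 of 38, and those past 1.5-fold from 3 to 7: Tacc3 (1.02), Nusap1 (0.98), Ttk (0.87), Aurka (0.79), Racgap1 (0.74), Aurkb (0.65) and Kif20a (0.65). The genes that changed side were Ccnb2, Ube2c, Pbk, Nuf2, Knstrn, Tpx2, Prc1 and Mki67. Ttk, at 18.6, 20.2 and 15.8 CPM in the control, Mll3- and Mll3/4-labelled libraries, again passed the minimum only through this one, so its place carries no weight. The share of all genes past 1.5-fold was not counted without the cells holding outside markers. With them it was 10.9% higher and 14.3% lower. The median log2 ratio over all genes past the minimum was -0.13 both with and without those cells. With every cell weighted alike, the ratio of sums was instead -0.27, with 8 genes past 1.5-fold below the control. The share of all genes was not counted there either.

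Other genes of the pathway were taken from 9 lists fixed by function. Over all 6125 genes past the minimum, 2.56% were higher and 3.54% lower past 1.5-fold in the Mll3-labelled library. These shares were 10.9% and 14.3% in the Mll4-labelled library, and 11.3% and 20.8% in the Mll3/4-labelled one. The counts of every list below are to be read beside them. Foxm1 and Mybl2, the factors that switch on G2 and mitosis genes, were both under the minimum of 20 CPM: Foxm1 was at 14.5, 16.8, 14.8 and 18.1 CPM and Mybl2 at 14.5, 17.1, 15.7 and 11.2 CPM in the order control, Mll3, Mll4 and Mll3/4. Of 15 regulators past the minimum, 0 were past 1.5-fold in the Mll3-labelled library, 1 higher and 1 lower in the Mll4-labelled one, and 3 higher and 3 lower in the Mll3/4-labelled one. E2f2 passed the minimum only through the Mll3/4-labelled library and Rb1 (14.2, 13.2, 29.1 and 36.5 CPM) only through the libraries with an Mll4 label, where each is high, so their places among those higher carry no weight. E2f2, an activator of S phase genes, was at 9.54, 13.4, 5.78 and 186 CPM, and Nfya, a subunit of the CCAAT-binding complex, at 58.8, 59.9, 44.6 and 27.3 CPM. The first was thus far higher, and the second lower, in the Mll3/4-labelled library than in any other. E2f8, a repressor of E2F targets, was at 33.8, 31.6, 40.7 and 51.6 CPM.

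Among 10 genes of mitotic entry, Cks1b, a CDK subunit, was at 202, 208, 149 and 132 CPM, Arpp19, an inhibitor of the phosphatase that opposes CDK1, at 127, 103, 212 and 175 CPM, and Wee1, the kinase that restrains CDK1, at 71.9, 77.6, 42.2 and 53.9 CPM. In this list 1 gene was higher and 0 lower past 1.5-fold in the Mll3-labelled library, 1 and 1 in the Mll4-labelled one, and 2 and 1 in the Mll3/4-labelled one. The one higher in the Mll3-labelled library was Cdc25b, a phosphatase that activates CDK1, at 14.3, 21.5, 10.5 and 54.1 CPM, which passed the minimum only through the Mll3/4-labelled library. Of 17 genes of the anaphase-promoting complex and its partners, the Mll3-labelled library had 0 higher and 1 lower, the Mll4-labelled one 1 and 1, and the Mll3/4-labelled one 2 and 1. Ube2s, the enzyme that extends the ubiquitin chains UBE2C begins, was at 299, 405, 205 and 452 CPM, the same order of libraries as Ube2c. Cdc26, a small subunit, was at 137, 147, 85.4 and 86.4 CPM and Anapc13 at 88.4, 56.2, 158 and 91.1 CPM. Of 8 condensin genes, 3 were higher (37.5%, beside 11.3% of all genes) and 0 lower in the Mll3/4-labelled library, and none passed 1.5-fold in the other 2. Smc4, a core subunit, was at 337, 370, 322 and 584 CPM, Ncapg2 at 48.4, 53.4, 44.6 and 74.2 CPM, and Ncaph at 26.6, 25.2, 30.7 and 44.5 CPM.

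Of 13 cohesin and separase genes, 1 was higher in the Mll3-labelled library, 2 higher and 1 lower in the Mll4-labelled one, and 3 higher and 2 lower in the Mll3/4-labelled one. Pttg1, the securin that CDC20 targets, was at 24.5, 47.3, 72.7 and 102 CPM, above the control in all 3. Smc1a, a cohesin core subunit, was at 417, 417, 271 and 307 CPM, and Nipbl, the cohesin loader, at 137, 133, 163 and 210 CPM. Wapl, which releases cohesin, was at 124, 132, 103 and 31.6 CPM, low only in the Mll3/4-labelled library. None of 6 other mitotic kinesins passed 1.5-fold in any library. Of 21 other centromere, kinetochore and checkpoint genes, 0 were past it in the Mll3-labelled library and 1 was higher and 1 lower in the Mll4-labelled one. In the Mll3/4-labelled one 0 were higher and 4 lower (19.05%, close to the 20.8% of all genes). Cenpm was at 72.1, 89.0, 42.5 and 46.6 CPM, Cenpw at 44.7, 32.9, 91.6 and 60.9 CPM, and Pmf1 at 64.7, 74.3, 52.6 and 36.7 CPM. The first and last of these were lowest in the libraries with an Mll4 label, and Cenpw was highest in the Mll4-labelled one. Of 8 tubulin genes, 1 was higher in the Mll3-labelled library, 2 higher and 1 lower in the Mll4-labelled one, and 1 higher and 2 lower in the Mll3/4-labelled one. Stmn1, which destabilises microtubules, was at 1638, 1922, 984 and 1103 CPM, Tubb4b at 444, 593, 318 and 290 CPM, and Tuba4a at 142, 175, 221 and 19.1 CPM.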

How the data were processed

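RNA and antibody counts were measured in 4 libraries of LSK cells. The authors deposited UMI counts per gene, antibody and barcode, written by Cell Ranger 6.1.1 per the file headers. The build was mm10, per the submitters' processing notes, and the filter that chose barcodes is not given in the sources used here. Library type was 10x 3′, per the labels' protocols. Other deposited values are gene and barcode names.

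Barcodes were kept at 1000 or more genes and at most 10% mitochondrial UMIs. UMIs were summed per library and gene, divided by all gene UMIs (CPM), and compared as log2 ratios after adding 0.5 UMIs. Intervals were exact: Poisson for levels, Clopper-Pearson for shares and for ratios of counts, covering counting error only. Cells are not replicates, and no p-value was computed. Genes were listed at a mean of 20 CPM or more. Antibody counts became centred log ratios, and groups were split where the 2 components of a Gaussian mixture cross. Doublets were not removed in the values reported; Scrublet called 0.0211% to 0.0492% of cells in 3 libraries, too few to have worked there, and 3.57% in the Mll4-labelled one. Coordinates and overlaps are from GENCODE vM21 on GRCm38: Anln overlaps a counted gene on its own strand and 10 other members one on the opposite strand. Promoters of Kif20a, Ccna2, Aurkb, Tpx2 and Pbk were not analysed here. Code was tested on simulated counts.

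The 40 genes and all lists were chosen with earlier results of these data known. The named genes were all 40, Foxm1, Mybl2, Kmt2c, Kmt2d, and up to 3 genes past 1.5-fold with the highest mean CPM per other list. Pttg1 and Rrm2 were picked after their values were seen. Alternatives were edgeR 4.0.16 TMM and median-of-ratios scaling, other totals, cell filters, Scrublet removal, cell weights, minimums, folds and antibody thresholds. Leaving out B progenitor marker cells or shared barcodes was added after seeing the data. Python 3.11.15, numpy 2.4.6, scipy 1.17.1, scikit-learn 1.9.0 and scanpy 1.11.5 were used.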

Additional observations from a re-analysis of the deposited data

Results flagged for a closer look

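Summed over the 40 G2 and mitosis genes, the library labelled Mll4 exceeded the control in CD150+CD48- cells (log2 ratio 0.28) and CD150-CD48- cells (0.43) and lay below it in CD150+CD48+ (-0.073) and CD150-CD48+ cells (-0.17). The Mll3/4-labelled library lay above the control in CD150+CD48- (0.68), CD150-CD48- (1.10) and CD150-CD48+ cells (0.057) and below it in CD150+CD48+ cells (-0.51). The opposite directions drew attention, and with 1 library per group the difference between antibody groups was not tested.

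Barcodes that the cell filter left out also held these transcripts: 3377 CPM in the Mll3-labelled and 4592 CPM in the Mll3/4-labelled library, above the 2988 CPM (2886 to 3092) of the control's left-out barcodes. The Mll4-labelled library had the most left-out barcodes, 2909 against 388 to 459 in the others, and they held 2540 CPM (2487 to 2593), below the control.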

How the results depend on the processing

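No paired analysis was possible because each group holds 1 library. For the summed level, the log2 ratios of the Mll3-, Mll4- and Mll3/4-labelled libraries to the control (0.21, -0.0035 and 0.24) became 0.12, 0.034 and 0.32 with TMM scaling, 0.12, 0.042 and 0.35 with median-of-ratios scaling, and 0.13, -0.050 and 0.19 with totals that leave out mitochondrial and ribosomal protein genes. A stricter cell filter (2000 genes, 5%) gave 0.19, -0.20 and 0.31, and equal weight per cell gave 0.24, -0.27 and 0.086. Antibody groups weighted to control shares gave 0.41, -0.055 and 0.23. Removing the highest Scrublet scores gave 0.18 in the Mll3-labelled library, the looser filter -0.0098 in the Mll4-labelled one. Without cells holding markers from outside the LSK population the values were 0.21 in the Mll4- and 0.23 in the Mll3/4-labelled library, and without B progenitor marker cells 0.12 in the Mll3-labelled one. The cause of these shifts was not tested. The directions for Mll3 and Mll3/4 held under every setting run on them, and that for Mll4 did not. Leaving out B progenitor marker cells was not run for Mll3/4, where 99.5% of cells held those markers. The few other cells of that library held 3408 CPM, against 3451 CPM in the other cells of the control.

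Genes past 1.5-fold higher numbered 3 in the Mll4-labelled library and became 0 with the stricter filter, 7 without cells holding outside markers, 1 with equal weight per cell, 1 at a minimum of 50 CPM and 0 at 2-fold. The 6 of the Mll3/4-labelled library became 3 with totals without mitochondrial and ribosomal protein genes, 2 with equal weight and 0 at 2-fold (9 with median-of-ratios scaling). The 0 of the Mll3-labelled library became 1 (Fam83d) at a minimum of 5 CPM. Genes past 1.5-fold lower, 0 in all 3, became 4 with the stricter filter and 8 with equal weight in the Mll4-labelled library, and 1 with equal weight (Knstrn) or a minimum of 5 CPM (Iqgap3) in the Mll3/4-labelled one. The share of all genes past the fold was not counted under these settings. The median over genes in the Mll4-labelled library turned from -0.08 to 0.13 without cells holding outside markers. In CD150+CD48+ cells the Mll3-labelled ratio of 0.17 turned to -0.00088 without centring and -0.041 with thresholds per library.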
